A study of Mus musculus with 21 samples.

Results

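The 34 genes described here encode NF-kB subunits, their inhibitors and feedback regulators, chemokines, cytokines, and the receptors and adaptor that feed the pathway. They were chosen as a list of symbols, and each was read from the probe set that the platform's gene table pairs with that gene alone, the brightest by mean over the 21 arrays where there were several. Of the 34 genes, 33 were measured among 22180 genes tested, each by 1 probe set, and the remaining gene, Nfkb1, was not analysed here. The study sorted mouse stomach corpus cells by green fluorescent protein driven from Lgr5 into high, low and negative populations, and hybridised amplified RNA to microarrays. Tamoxifen mice received 0.27 mg per g of body weight by injection 24 hours before the cells were isolated (4 arrays each of tamoxifen high, low and negative cells). Control mice were untreated (3 arrays each of control high, low and negative cells), so effects of the agent, of injecting it and of the run cannot be told apart, and no vehicle group was analysed here. The labels describe the arrays of a group as technical replicates from individual sorting runs, and give no strain, age, reporter line or number of animals, so p-values measure the spread between these arrays.

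NF-kB is a family of dimeric transcription factors held inactive in the cytoplasm by IkB proteins. Signals from Toll-like, interleukin and TNF receptors lead to destruction of IkB, after which the dimers enter the nucleus and switch on chemokines, cytokines, adhesion molecules and their own inhibitors. In the stomach this pathway is known from the epithelial response to infection and injury, and tamoxifen given to mice in large amounts is a known cause of parietal cell loss.

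Levels are the authors' log2 signal per probe set, and differences are on the same log2 scale. A gene was called changed when limma's adjusted p over all 22180 genes was under 0.05. A mean at or under 4.16, the 95th percentile of the means of 1105 olfactory receptor genes, was taken as near background, and a fold against such a mean is given as a lower bound from that level. Lgr5, whose reporter was sorted on, lay at 4.06, 4.34 and 4.83 in the 3 control negative arrays, which 1 label field calls low, and at 7.49, 7.48 and 7.72 in control low cells. In tamoxifen low cells Lgr5 read 6.54, 7.01, 6.75 and 6.49, lower than in control low cells with no overlap (log2 difference -0.86, adjusted p = 0.011), so both low populations differ in the gene whose reporter was sorted on. Lgr5 was not called between tamoxifen and control in high or negative cells (adjusted p = 0.415 and 0.798). All 7 epithelial genes checked were above background in every group. In control cells 21 to 22 of the 33 genes had a mean above background in a given population, and in tamoxifen cells 25 to 26. Il1b, Il6, Tnfaip2, Cxcl2 and Cxcl5 were near background in all 6 groups, so no order is read from their levels. They stay in the counts, shares and medians given for the 33 genes.

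The promoters of these genes were searched for the kB consensus, the 10-letter element bound by NF-kB (GGG, a purine, any base, A or T, 2 pyrimidines, CC), on both strands, and a gene with overlapping or several matches counted once. RefSeq promoter sequences (GRCm38.p6, 250 bases before to 50 after each annotated start) were given for 27 of the 33 genes. Of these 27 genes, 14 (51.9%) held a match, against 5.1% of the 27025 genes of the promoter table, and 16 of 33 promoters held one, against 4.5% of all 32851 promoters of the same length. A match was held by 9 of the 15 genes that rose in tamoxifen low cells and by 5 of the 12 others. When only GGG and CC were fixed and the 5 letters between them were free to vary, 81.5% of the 27 genes and 53.5% of all genes held a match. The genes were listed for their known place in this pathway, and a match is a run of letters, not a site shown to be bound. The 130 bases before the start are shown 5′ to 3′ for the 7 genes that rose in tamoxifen low cells and hold a match there, with matched letters in capitals, so that the placing and spelling of the element can be set beside the expression values. They are Cxcl1 chr5:90891115-90891244 (plus strand), Nfkb2 chr19:46304607-46304736 (plus strand), Rel chr11:23770970-23771099 (minus strand), Nfkbia chr12:55492648-55492777 (minus strand), Tnfaip3 chr10:19015411-19015540 (minus strand), Tnip1 chr11:54962941-54963070 (minus strand) and Tnip3 chr6:65590268-65590397 (plus strand).
Cxcl1: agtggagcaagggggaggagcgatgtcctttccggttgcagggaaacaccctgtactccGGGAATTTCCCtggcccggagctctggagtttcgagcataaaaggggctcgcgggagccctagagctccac
Nfkb2: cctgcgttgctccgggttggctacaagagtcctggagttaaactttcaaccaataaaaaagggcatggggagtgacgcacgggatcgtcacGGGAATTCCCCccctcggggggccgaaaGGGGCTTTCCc
Rel: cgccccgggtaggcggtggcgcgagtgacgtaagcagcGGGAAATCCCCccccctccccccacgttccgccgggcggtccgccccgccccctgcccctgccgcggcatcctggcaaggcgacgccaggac
Nfkbia: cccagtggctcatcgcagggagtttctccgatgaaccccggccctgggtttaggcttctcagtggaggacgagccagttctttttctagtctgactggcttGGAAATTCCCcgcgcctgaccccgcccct
Tnfaip3: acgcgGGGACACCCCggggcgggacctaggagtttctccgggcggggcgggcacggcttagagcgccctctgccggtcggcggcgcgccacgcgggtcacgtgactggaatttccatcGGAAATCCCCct
Tnip1: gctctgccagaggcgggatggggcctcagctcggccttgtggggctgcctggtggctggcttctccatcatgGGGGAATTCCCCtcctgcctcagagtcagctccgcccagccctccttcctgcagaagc
Tnip3: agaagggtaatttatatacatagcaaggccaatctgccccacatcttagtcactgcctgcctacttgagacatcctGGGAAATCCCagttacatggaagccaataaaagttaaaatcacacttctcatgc
Cxcl2 and Il6 are shown next because they hold a match in the same window and yet were near background on this array in all 6 groups (Cxcl2 chr5:90903769-90903898 (plus strand) and Il6 chr5:30012984-30013113 (plus strand)).
Cxcl2: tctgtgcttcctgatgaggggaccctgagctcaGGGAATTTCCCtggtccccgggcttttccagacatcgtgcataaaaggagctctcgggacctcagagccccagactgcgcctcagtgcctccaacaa
Il6: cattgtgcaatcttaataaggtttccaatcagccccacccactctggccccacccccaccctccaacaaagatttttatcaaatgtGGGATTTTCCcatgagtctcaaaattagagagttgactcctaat
Cxcl1 and Cxcl2, neighbouring chemokine genes on chromosome 5, carry the same 11 letters GGGAATTTCCC, in which the motif can be read on either strand.

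**Figure D1:**
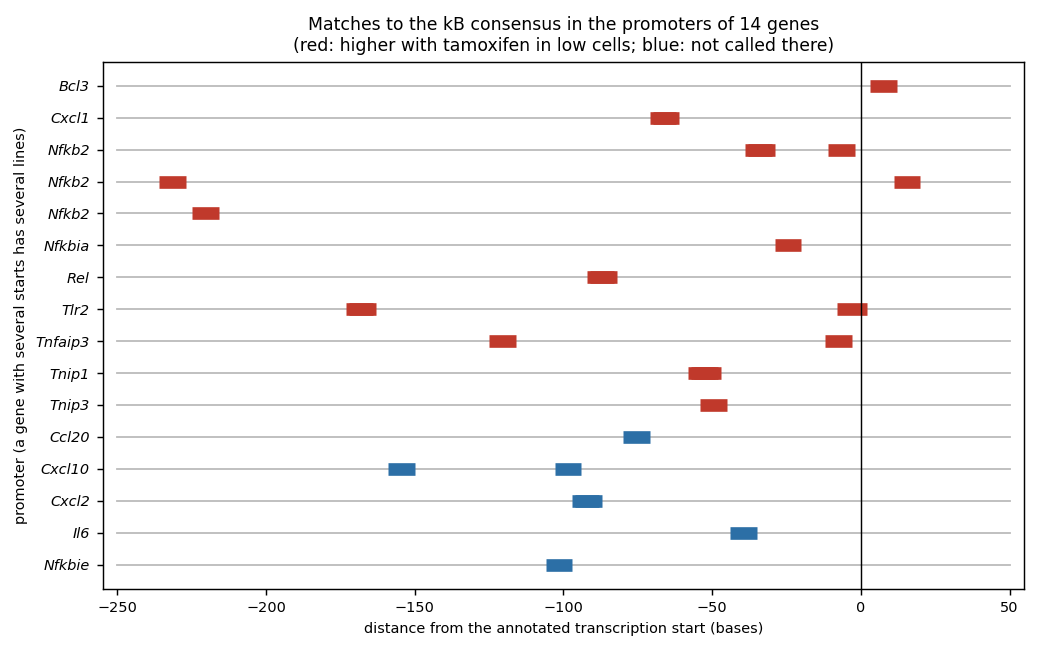
Positions of matches to the kB consensus in the promoters of 14 genes, in bases from the annotated start, 1 line per promoter; red marks genes that rose with tamoxifen in low cells and blue genes not called there. Most matches lie before the start, that of Bcl3 and 1 of Nfkb2 lie after it and 1 of Tlr2 spans it, and the 3 lines of Nfkb2 are promoters of 3 annotated starts, of which the last 2 overlap.

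In Lgr5GFP low cells, 18 of the 33 genes rose with tamoxifen and 0 fell (limma, with 21 of 33 at an unadjusted p under 0.05). Of these 18 calls, 15 held in every other setting tried, 10 held without any 1 array and 10 held in all of these fits. The rises are 54.5% of the list, against 5.35% of all genes, of which 2.98% fell and 21.3% had an unadjusted p under 0.05. The median log2 difference of the list was 1.17, beside 0.01 over all 22180 genes. The 4 measured NF-kB subunits, 2 of 4 IkB family genes, 4 of 6 TNF-induced regulators, all 3 receptors and adaptor, 2 of 8 chemokines, 2 of 6 cytokines and Icam1 rose. The tamoxifen and control arrays did not overlap for 20 of the 33 genes, where 21.2% of all genes showed no overlap.

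**Figure D2:**
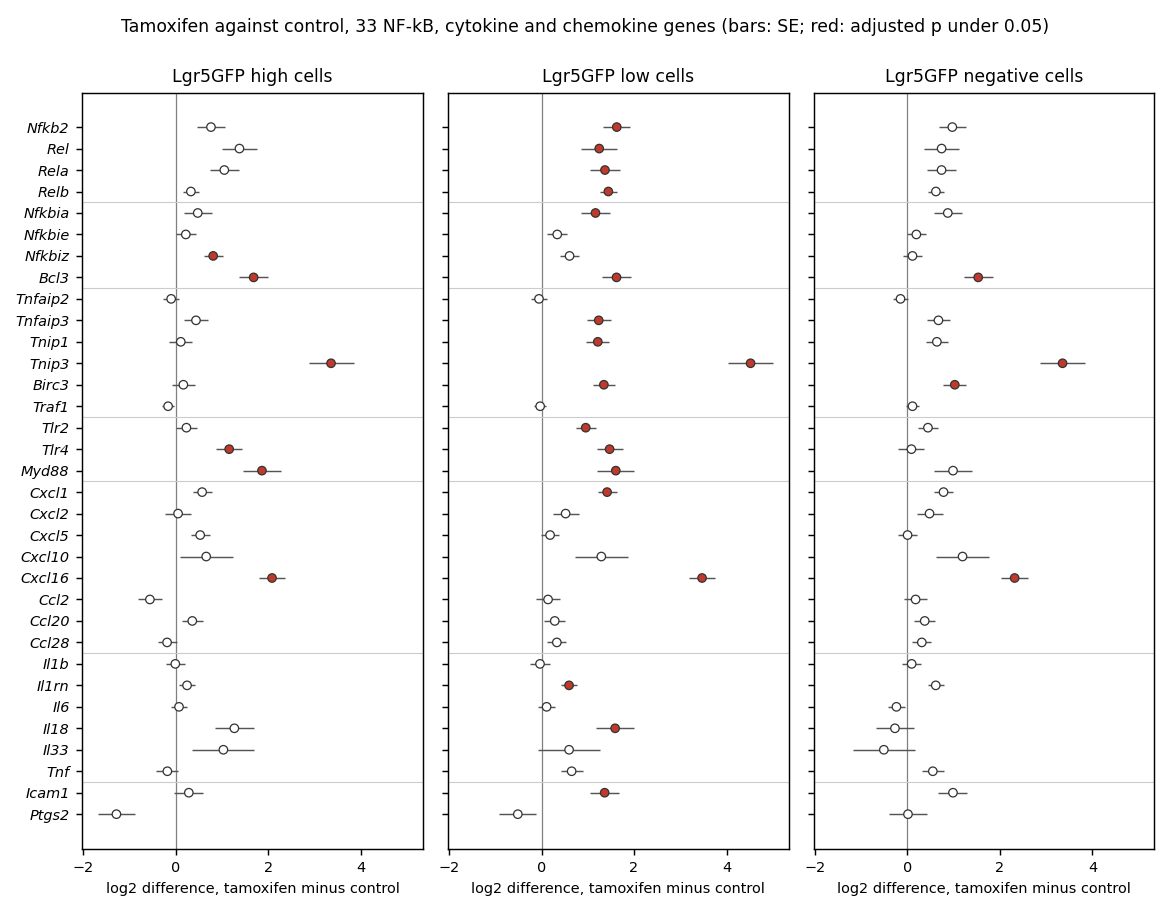
The log2 difference, tamoxifen minus control, of 33 genes in Lgr5GFP high, low and negative cells, grouped by role; bars are standard errors from limma and red points passed an adjusted p under 0.05. Red points number 6 in high, 18 in low and 4 in negative cells, all to the right of 0, and Tnip3 and Cxcl16 lie farthest to the right in each panel.

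The transcription factor subunits rose together in low cells. Relb, the partner of p52 in the non-canonical pathway, read 6.80, 6.05, 6.44 and 6.06 in tamoxifen low cells, against 4.60, 5.09 and 4.99 in control low cells (log2 difference 1.44 ± 0.18 (SE), adjusted p = 4.53e-05). Nfkb2, which encodes p100, the precursor of p52, read 7.48, 7.35, 7.16 and 6.56 in tamoxifen low cells, against 6.01, 5.30 and 5.23 in control low cells (log2 difference 1.63 ± 0.29 (SE), adjusted p = 0.00137). Rela, the transactivating p65 subunit, read 9.10, 9.09, 8.38 and 8.52 in tamoxifen low cells, against 7.35, 7.20 and 7.66 in control low cells (log2 difference 1.37 ± 0.32 (SE), adjusted p = 0.00891). For these 3 genes every tamoxifen array lay above every control array. Rel, which encodes c-Rel, read 7.04, 6.50, 6.22 and 6.30 in tamoxifen low cells, against 3.90, 6.10 and 5.81 in control low cells (log2 difference 1.25 ± 0.39 (SE), adjusted p = 0.0497). The first control low array stands far below the others for Rel, and without it the difference was 0.56 (adjusted p = 0.361). The Rel call was also lost without any 1 of the tamoxifen low arrays, after cyclic loess, with a replicate block and with only these groups fitted. Rela had adjusted p = 0.0509 without control low 2.

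Of 6 regulators induced by TNF, 4 rose in low cells. Tnip3, a ubiquitin-binding partner of the deubiquitinase A20 that restrains the pathway, read 9.15, 8.76, 6.96 and 7.97 in tamoxifen low cells, against 3.64, 3.49 and 3.94 in control low cells. It was at least 16.6-fold higher (log2 difference 4.52 ± 0.49 (SE), adjusted p = 8.89e-06), and every control low array was near background. Tnfaip3, which encodes A20, read 6.35, 5.92, 5.49 and 5.73 in tamoxifen low cells, against 4.23, 4.86 and 4.82 in control low cells (log2 difference 1.24 ± 0.26 (SE), adjusted p = 0.0041). Tnip1, another A20 partner, read 7.44, 7.32, 6.58 and 6.82 in tamoxifen low cells, against 5.58, 6.0 and 5.91 in control low cells (log2 difference 1.22 ± 0.25 (SE), adjusted p = 0.0035). Birc3, a ubiquitin ligase downstream of TNF receptors, read 7.53, 6.90, 6.56 and 6.64 in tamoxifen low cells, against 5.64, 5.38 and 5.67 in control low cells (log2 difference 1.35 ± 0.25 (SE), adjusted p = 0.00144). In all 4 genes the groups were apart, and each call held in every other setting tried and without any 1 array.

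Among the IkB family, Bcl3, a nuclear IkB protein that binds p50 and p52, read 8.40, 8.61, 8.03 and 8.34 in tamoxifen low cells, against 6.45, 6.61 and 7.11 in control low cells (log2 difference 1.62 ± 0.31 (SE), adjusted p = 0.00249). Nfkbia, which encodes IkB-alpha, the main cytoplasmic inhibitor, read 8.79, 8.44, 7.97 and 7.91 in tamoxifen low cells, against 7.58, 6.78 and 6.98 in control low cells (log2 difference 1.17 ± 0.31 (SE), adjusted p = 0.0194). Both genes were higher on every tamoxifen array, though the Nfkbia call was lost without tamoxifen low 1 or 2 or control low 2 or 3 (adjusted p up to 0.11). Nfkbiz, an inducible nuclear IkB protein, read 6.04, 6.67, 6.32 and 6.35 in tamoxifen low cells, against 5.89, 5.75 and 5.59 in control low cells, apart but not called (log2 difference 0.60 ± 0.20 (SE), adjusted p = 0.0747). Nor was a call made for Nfkbie, which encodes IkB-epsilon (adjusted p = 0.393). Traf1, an adaptor of TNF receptors, and Tnfaip2, a TNF-induced gene, had log2 differences of -0.03 and -0.06 (adjusted p = 0.928 and 0.896).

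**Figure D3:**
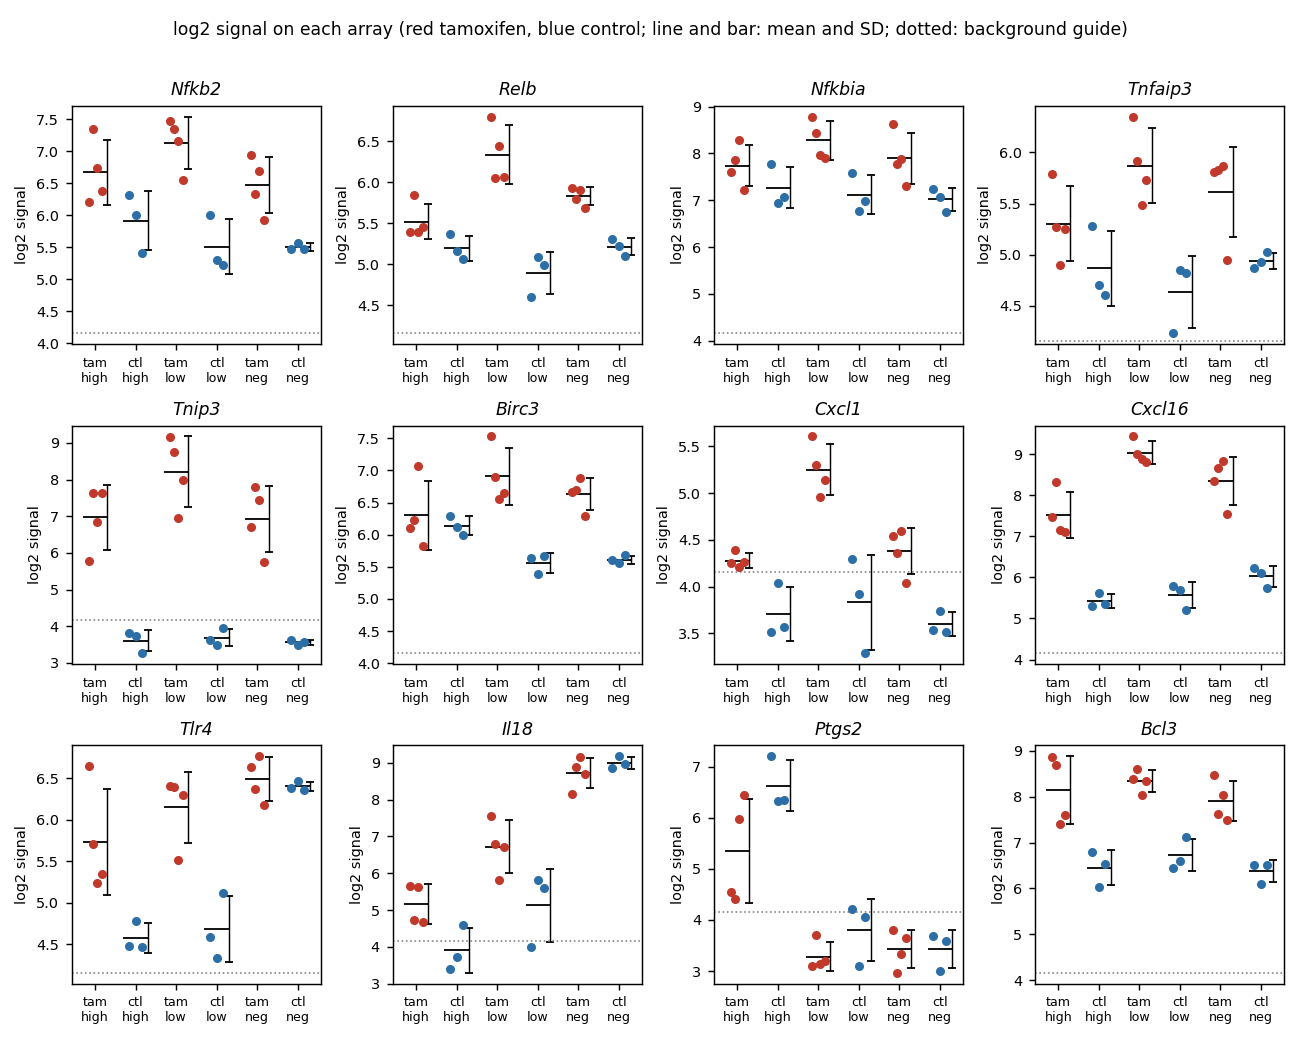
The log2 signal of 12 genes on each of the 21 arrays (red tamoxifen, blue control), with the mean and SD of each group and a dotted line at the background guide of 4.16. Tnip3 and Cxcl16 are higher on every tamoxifen array than on any control array, while Il18 and Tlr4 in negative cells and Ptgs2 in all 3 populations show no such gap.

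Receptors and the adaptor rose in low cells as well. Tlr4, the lipopolysaccharide receptor, read 6.40, 6.40, 5.51 and 6.30 in tamoxifen low cells, against 4.59, 4.34 and 5.12 in control low cells (log2 difference 1.47 ± 0.28 (SE), adjusted p = 0.00218). Tlr2, which senses bacterial lipoproteins, read 5.72, 4.88, 5.03 and 5.00 in tamoxifen low cells, against 3.93, 4.42 and 4.26 in control low cells (log2 difference 0.95 ± 0.22 (SE), adjusted p = 0.00854). Myd88, the adaptor that Toll-like and interleukin-1 receptors share, read 7.34, 7.48, 6.36 and 6.78 in tamoxifen low cells, against 5.48, 5.03 and 5.64 in control low cells (log2 difference 1.60 ± 0.40 (SE), adjusted p = 0.0149). Groups did not overlap for any of them. The Tlr2 call was lost without control low 1 (adjusted p = 0.0654), and that of Myd88 without tamoxifen low 1 or 2 or control low 2 (adjusted p up to 0.0838). Icam1, the adhesion molecule that leukocytes bind, read 6.58, 6.45, 5.55 and 5.34 in tamoxifen low cells, against 4.22, 5.04 and 4.58 in control low cells (log2 difference 1.36 ± 0.31 (SE), adjusted p = 0.00861, and adjusted p = 0.0664 without control low 1).

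Of the chemokines, Cxcl16, a transmembrane chemokine that is the ligand of Cxcr6, changed most. Its arrays read 9.44, 9.01, 8.89 and 8.82 in tamoxifen low cells, against 5.80, 5.69 and 5.21 in control low cells, a rise of 11.1-fold (log2 difference 3.47 ± 0.29 (SE), adjusted p = 4.27e-07) in which the lowest tamoxifen array was about 3 log2 units above the highest control array. Cxcl1, a neutrophil attractant, read 5.61, 5.30, 4.96 and 5.14 in tamoxifen low cells, against 4.29, 3.92 and 3.29 in control low cells, and was at least 2.13-fold higher (log2 difference 1.42 ± 0.21 (SE), adjusted p = 0.000209). The other 6 chemokines were not called. Cxcl10, an interferon-induced attractant of T cells, read 5.51, 5.04, 7.31 and 4.59 in tamoxifen low cells, against 4.05, 4.53 and 4.39 in control low cells (log2 difference 1.29 ± 0.57 (SE), adjusted p = 0.189). Every tamoxifen low array was above the controls for Cxcl10, but the tamoxifen arrays spread over more than 2 log2 units. Cxcl2, Cxcl5, Ccl2, Ccl20 and Ccl28, attractants of neutrophils, monocytes and lymphocytes, had log2 differences from 0.14 to 0.52 and adjusted p from 0.302 to 0.821.

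Of the cytokines, Il18, an interleukin-1 family cytokine stored as a precursor in epithelial cells, read 7.57, 6.79, 5.83 and 6.71 in tamoxifen low cells, against 4.00, 5.82 and 5.59 in control low cells (log2 difference 1.59 ± 0.42 (SE), adjusted p = 0.0199). Without control low 1, its lowest array, the Il18 difference was 1.02 (adjusted p = 0.176), and the call was also lost without tamoxifen low 1 or 2 and with only these groups fitted. Il1rn, the antagonist of the interleukin-1 receptor, read 5.20, 5.59, 5.56 and 5.27 in tamoxifen low cells, against 4.64, 4.94 and 4.86 in control low cells (log2 difference 0.59 ± 0.18 (SE), adjusted p = 0.0408), and no overlap. The Il1rn call was lost without tamoxifen low 2 or 3 or any 1 control low array, with a trended and robust prior, and with only these groups fitted (adjusted p up to 0.182). Tnf, the cytokine that gives the TNF receptors their name, was not called (log2 difference 0.65 ± 0.24 (SE), adjusted p = 0.106). Il33, an alarmin of barrier cells, read 3.89, 4.00, 3.97 and 5.81 in tamoxifen low cells, against 4.05, 3.61 and 3.80 in control low cells, where 1 tamoxifen array made the difference (adjusted p = 0.677). The fever cytokines Il1b and Il6 had adjusted p = 0.952 and 0.795. Ptgs2, the inducible prostaglandin synthase, read 3.09, 3.71, 3.13 and 3.19 in tamoxifen low cells, against 4.22, 3.11 and 4.07 in control low cells, and both means were near background.

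In Lgr5GFP high cells, 6 of the 33 genes rose with tamoxifen and 0 fell, where 1.70% of all genes rose and 1.04% fell. At an unadjusted p under 0.05 there were 14 of the 33, against 16.9% of all genes. The median log2 difference of the list was 0.36, beside 0.00 over all genes. Tnip3 read 5.78, 7.63, 6.84 and 7.63 in tamoxifen high cells, against 3.81, 3.75 and 3.27 in control high cells, at least 7.01-fold higher (log2 difference 3.36 ± 0.49 (SE), adjusted p = 0.00087). Cxcl16 read 7.47, 8.32, 7.16 and 7.11 in tamoxifen high cells, against 5.31, 5.63 and 5.36 in control high cells, a rise of 4.23-fold (log2 difference 2.08 ± 0.29 (SE), adjusted p = 0.000564). Bcl3 read 8.87, 8.69, 7.40 and 7.61 in tamoxifen high cells, against 6.80, 6.03 and 6.54 in control high cells (log2 difference 1.68 ± 0.31 (SE), adjusted p = 0.00619). These 3 genes kept their calls without any 1 array, and with only the 7 arrays compared in the fit Tnip3 alone passed.

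The remaining calls in high cells rest on fewer arrays. Myd88 read 6.92, 7.86, 6.88 and 5.43 in tamoxifen high cells, against 4.40, 4.86 and 5.45 in control high cells (log2 difference 1.86 ± 0.40 (SE), adjusted p = 0.016), and its groups overlapped at a single tamoxifen array. Tlr4 read 6.65, 5.70, 5.24 and 5.35 in tamoxifen high cells, against 4.48, 4.78 and 4.47 in control high cells (log2 difference 1.16 ± 0.28 (SE), adjusted p = 0.0293). Nfkbiz, an inducible nuclear IkB protein, read 6.21, 6.77, 5.94 and 5.90 in tamoxifen high cells, against 5.48, 5.06 and 5.66 in control high cells (log2 difference 0.81 ± 0.20 (SE), adjusted p = 0.0356). Leaving out control high 1 or control high 2 ended the calls of Myd88, Tlr4 and Nfkbiz and left 3 genes called, and Tlr4 and Nfkbiz were also lost without tamoxifen high 1 or 2 (adjusted p up to 0.316). The Tlr4 call was lost without control high 3 as well.

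None of the 4 subunits was called in high cells. Rel read 7.0, 6.23, 5.56 and 6.20 in tamoxifen high cells, against 4.90, 4.56 and 5.16 in control high cells (adjusted p = 0.0589). Rela read 9.01, 9.31, 8.90 and 7.91 in tamoxifen high cells, against 7.85, 7.47 and 7.88 in control high cells (adjusted p = 0.0809). In neither gene did the groups overlap. Nfkb2 read 6.22, 7.36, 6.74 and 6.38 in tamoxifen high cells, against 6.32, 6.01 and 5.41 in control high cells (adjusted p = 0.18). Relb read 5.39, 5.84, 5.39 and 5.46 in tamoxifen high cells, against 5.36, 5.16 and 5.06 in control high cells (adjusted p = 0.376). The Nfkb2 groups overlapped, and those of Relb were apart by under 0.1 log2. In high cells the groups did not overlap for 12 of 33 genes, and for 10.4% of all genes.

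The inhibitors and regulators that rose in low cells were not called in high cells, other than Bcl3 and Tnip3. Nfkbia read 7.61, 7.86, 8.28 and 7.22 in tamoxifen high cells, against 7.77, 6.95 and 7.08 in control high cells (log2 difference 0.48, adjusted p = 0.464). Tnfaip3 read 5.79, 5.27, 4.91 and 5.25 in tamoxifen high cells, against 5.28, 4.71 and 4.61 in control high cells (log2 difference 0.44, adjusted p = 0.41). The groups of both genes overlapped. Tnip1 read 6.36, 6.79, 5.99 and 6.01 in tamoxifen high cells, against 6.11, 6.0 and 6.42 in control high cells (log2 difference 0.11, adjusted p = 0.872). Birc3 read 6.10, 6.22, 7.07 and 5.82 in tamoxifen high cells, against 6.29, 6.13 and 6.0 in control high cells (log2 difference 0.16, adjusted p = 0.793). For Tnip1 and Birc3 all control values lay inside the tamoxifen range.

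Of the chemokines, cytokines and Icam1, Cxcl16 alone was called in high cells. Cxcl1 read 4.26, 4.39, 4.21 and 4.26 in tamoxifen high cells, against 3.52, 4.04 and 3.57 in control high cells (log2 difference 0.57, adjusted p = 0.152). Il18 read 5.64, 4.72, 5.64 and 4.69 in tamoxifen high cells, against 3.41, 3.72 and 4.59 in control high cells (log2 difference 1.27, adjusted p = 0.11). Neither pair of groups overlapped, and control high means were near background in both. Cxcl10 read 3.88, 6.54, 3.68 and 4.32 in tamoxifen high cells, against 3.75, 4.22 and 3.87 in control high cells (adjusted p = 0.608). Il33 read 7.67, 4.92, 4.04 and 4.05 in tamoxifen high cells, against 4.27, 4.08 and 4.06 in control high cells (adjusted p = 0.472). In both, the groups overlapped. Icam1 read 5.54, 4.81, 4.84 and 5.09 in tamoxifen high cells, against 4.77, 4.80 and 4.80 in control high cells (adjusted p = 0.705). Il1rn read 5.31, 4.93, 5.20 and 5.15 in tamoxifen high cells, against 4.78, 4.76 and 5.17 in control high cells (adjusted p = 0.524). Tlr2 read 4.45, 4.73, 3.93 and 4.63 in tamoxifen high cells, against 4.02, 4.38 and 4.21 in control high cells (adjusted p = 0.647). The Icam1 groups were apart and those of Il1rn and Tlr2 overlapped. The other 11 genes, among them Nfkbie, Traf1, Ccl20 and Tnf, were not called in high cells, with log2 differences from -0.56 for Ccl2 to 0.53 for Cxcl5 and adjusted p of 0.177 (Cxcl5) or more.

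Ptgs2 was above background only in high cells, where it read 4.54, 4.42, 5.98 and 6.44 in tamoxifen high cells, against 7.21, 6.33 and 6.35 in control high cells. The mean was lower in tamoxifen high cells, but the groups overlapped and the gene was not called (log2 difference -1.28 ± 0.40 (SE), adjusted p = 0.0934). Ptgs2 is also known from tuft cells, the chemosensory cells of the gland. The mean log2 level of 7 tuft cell genes ran from 7.34 to 9.96 on tamoxifen high arrays and from 9.95 to 10.64 on control high arrays, and its part in the Ptgs2 values was not tested. The same 7 genes ran from 5.12 to 6.75 on tamoxifen low and 8.17 to 9.47 on control low arrays, where Ptgs2 was near background. In bulk samples fewer cells of a type and less RNA per cell cannot be told apart.

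In Lgr5GFP negative cells, 4 of the 33 genes rose with tamoxifen and 0 fell, where 1.62% of all genes rose and 0.703% fell. At an unadjusted p under 0.05 there were 16 of the 33, against 12.4% of all genes. The median log2 difference of the list was 0.55, beside 0.00 over all genes. Cxcl16 read 8.35, 8.66, 8.85 and 7.54 in tamoxifen negative cells, against 6.24, 6.11 and 5.75 in control negative cells, a rise of 4.99-fold (log2 difference 2.32 ± 0.29 (SE), adjusted p = 0.000135). Tnip3 read 6.70, 7.79, 7.44 and 5.74 in tamoxifen negative cells, against 3.63, 3.49 and 3.57 in control negative cells, at least 6.77-fold higher (log2 difference 3.35 ± 0.49 (SE), adjusted p = 0.000599). For both genes the calls held in every other setting and without any 1 array. Bcl3 read 8.47, 7.63, 8.03 and 7.49 in tamoxifen negative cells, against 6.52, 6.10 and 6.50 in control negative cells (log2 difference 1.53 ± 0.31 (SE), adjusted p = 0.0104, and adjusted p = 0.0733 without control negative 2).

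Birc3 read 6.67, 6.70, 6.89 and 6.29 in tamoxifen negative cells, against 5.60, 5.56 and 5.68 in control negative cells (log2 difference 1.02 ± 0.25 (SE), adjusted p = 0.0284). Its groups were apart, but the call was lost without any 1 of 6 of the 7 arrays (adjusted p up to 0.117). The count of called genes was 8 without tamoxifen negative 4, the array with the lowest value of Tnip3, Cxcl16, Tnfaip3, Nfkb2 and Icam1, and 2 without control negative 2. In negative cells 14 of 33 genes had groups that did not overlap, and 15.3% of all genes. 

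The subunits had positive differences in negative cells, and none was called. Relb read 5.93, 5.79, 5.90 and 5.69 in tamoxifen negative cells, against 5.31, 5.22 and 5.11 in control negative cells (log2 difference 0.62 ± 0.18 (SE), adjusted p = 0.0855). Nfkb2 read 6.95, 6.34, 6.69 and 5.94 in tamoxifen negative cells, against 5.47, 5.57 and 5.48 in control negative cells (log2 difference 0.97 ± 0.29 (SE), adjusted p = 0.101). In both genes every tamoxifen array was above every control array. Rel read 7.09, 6.49, 7.16 and 6.79 in tamoxifen negative cells, against 6.09, 6.07 and 6.27 in control negative cells (adjusted p = 0.458). Rela read 8.89, 7.93, 8.04 and 7.46 in tamoxifen negative cells, against 7.75, 6.94 and 7.35 in control negative cells (adjusted p = 0.325). The Rel groups were apart and those of Rela overlapped.

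Of the regulators in negative cells, Nfkbia read 8.62, 7.78, 7.88 and 7.30 in tamoxifen negative cells, against 7.23, 7.08 and 6.75 in control negative cells (log2 difference 0.87, adjusted p = 0.187). Tnfaip3 read 5.80, 5.83, 5.86 and 4.95 in tamoxifen negative cells, against 4.87, 4.93 and 5.03 in control negative cells (log2 difference 0.67, adjusted p = 0.241). Tnip1 read 7.16, 6.50, 6.65 and 6.16 in tamoxifen negative cells, against 6.22, 5.73 and 6.0 in control negative cells (log2 difference 0.64, adjusted p = 0.25). The Nfkbia groups were apart, and the last 2 overlapped through a single low tamoxifen array each. Nfkbiz read 6.74, 6.93, 7.04 and 6.55 in tamoxifen negative cells, against 6.82, 6.67 and 6.63 in control negative cells (log2 difference 0.11, adjusted p = 0.896). Tlr4 read 6.63, 6.37, 6.77 and 6.18 in tamoxifen negative cells, against 6.38, 6.46 and 6.36 in control negative cells (log2 difference 0.09, adjusted p = 0.943). In both genes the groups overlapped. Tlr2 read 4.54, 4.93, 5.27 and 4.72 in tamoxifen negative cells, against 4.40, 4.51 and 4.35 in control negative cells (adjusted p = 0.422). Myd88 read 7.28, 6.66, 6.82 and 6.19 in tamoxifen negative cells, against 5.97, 5.57 and 5.71 in control negative cells (adjusted p = 0.291). Both had groups apart without a call.

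Among secreted proteins in negative cells, Cxcl1 read 4.54, 4.36, 4.59 and 4.04 in tamoxifen negative cells, against 3.54, 3.74 and 3.52 in control negative cells (log2 difference 0.78 ± 0.21 (SE), adjusted p = 0.0509). Cxcl10 read 5.24, 4.26, 5.01 and 5.72 in tamoxifen negative cells, against 3.68, 4.09 and 3.83 in control negative cells (adjusted p = 0.4). Il1rn read 5.52, 5.54, 6.22 and 5.68 in tamoxifen negative cells, against 5.17, 5.28 and 4.94 in control negative cells (adjusted p = 0.0792). In each of these the groups were apart, and none was called. Cxcl1 passed after cyclic loess, without the dimmest genes, with a title number or replicate block and with only the groups compared in the fit. It also passed without tamoxifen negative 4, its lowest tamoxifen negative array. Cxcl1 did not pass with averaged probe sets, with a trended and robust prior, or without any 1 of the other tamoxifen negative or control negative arrays. Il18 read 8.17, 8.88, 9.16 and 8.70 in tamoxifen negative cells, against 8.85, 9.18 and 8.96 in control negative cells (log2 difference -0.27, adjusted p = 0.868). Il33 read 3.87, 4.39, 5.75 and 5.89 in tamoxifen negative cells, against 6.17, 5.23 and 5.07 in control negative cells (log2 difference -0.51, adjusted p = 0.834). Both had lower means with tamoxifen and overlapping groups. Icam1 read 6.60, 5.71, 5.63 and 5.21 in tamoxifen negative cells, against 4.47, 4.91 and 5.03 in control negative cells (adjusted p = 0.127). Ptgs2 read 3.81, 2.96, 3.33 and 3.64 in tamoxifen negative cells, against 3.69, 3.00 and 3.58 in control negative cells, near background throughout. The other 11 genes, among them Nfkbie, Traf1, Ccl20 and Tnf, were not called in negative cells, with log2 differences from -0.24 for Il6 to 0.55 for Tnf and adjusted p of 0.335 (Tnf) or more.

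Bcl3, Cxcl16 and Tnip3 were called in all 3 populations, Birc3, Myd88 and Tlr4 in 2, 13 genes in 1 and 14 in none. The tamoxifen difference was above 0 in all 3 populations for 23 of the 33 genes, and it was largest in low cells for 21. The shares of all genes that meet these marks were not computed. In high, low and negative cells 78.8%, 87.9% and 87.9% of the list were above 0, against 50.2%, 51% and 49.6% of all genes. Low cells had the most calls over all genes too (1846, against 606 in high and 515 in negative cells). Whether the tamoxifen effect differed between populations was tested by 3 interaction terms, and limma called 0 of 33 genes in each. At an unadjusted p under 0.05 there were 9 genes for high minus low, 5 for low minus negative and 6 for high minus negative, where 6.76%, 9.23% and 8.09% of all genes passed that mark and 0.0271%, 0.839% and 0.248% were called. The smallest p belonged to Relb for high minus low (log2 difference -1.12 ± 0.26 (SE), adjusted p = 0.214) and to Tlr4 for low minus negative (log2 difference 1.39 ± 0.40 (SE), adjusted p = 0.129) and for high minus negative (log2 difference 1.07 ± 0.40 (SE), adjusted p = 0.391). A difference in response between the 3 populations was not shown for any of the 33 genes, except that with only the 4 groups concerned in the fit Tlr4 passed for low minus negative.

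**Figure D4:**
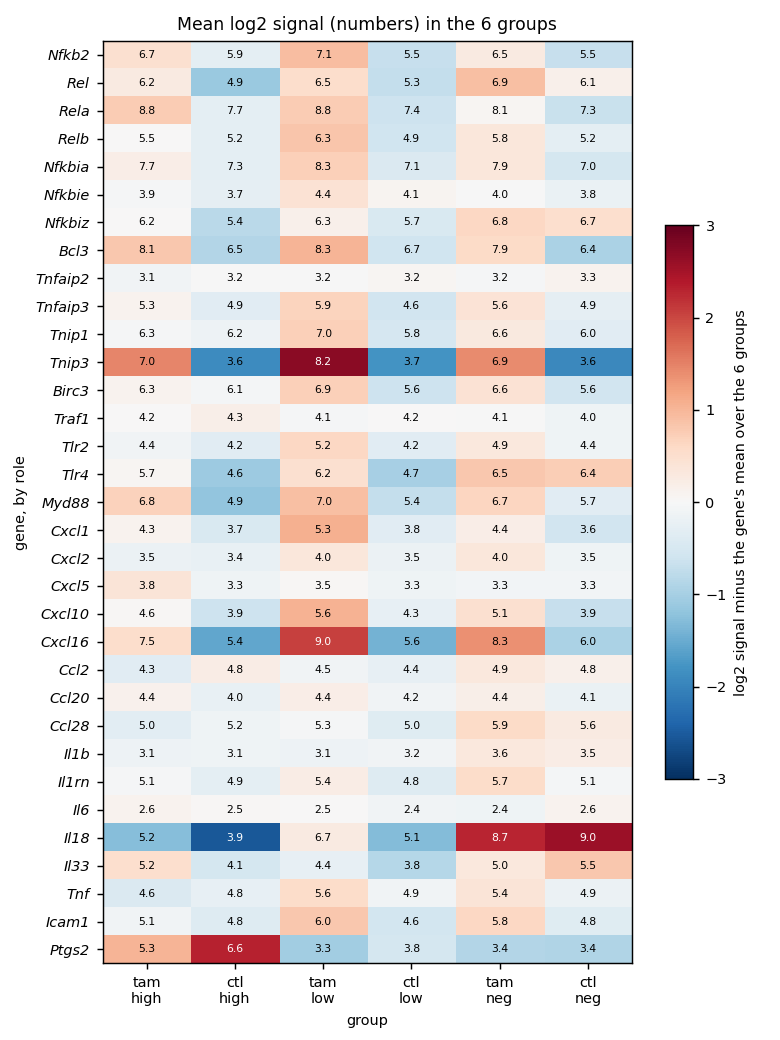
Mean log2 signal of 33 genes (printed numbers) in the 6 groups, with the colour giving the difference from the gene's own mean over the groups; colours compare groups within a row, and levels of different genes are not comparable. Tamoxifen columns are redder than the control columns beside them for most genes, Il18 and Tlr4 are lowest in control high and control low cells, and Ptgs2 is high only in the 2 high columns.

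In control mice, Il18, Tlr4, Nfkbiz, Rel and Ptgs2 were the genes that differed between sorted populations. Of the 33 genes, 5 differed between control high and control negative cells (1 higher, 4 lower), 3 between control low and control negative cells (all lower) and 1 between control high and control low cells, where 12.3%, 5.27% and 1.34% of all genes were called. Over all genes 4.64% were higher and 7.66% lower in high than in negative cells, 1.85% higher and 3.41% lower in low than in negative cells, and 0.694% higher and 0.645% lower in high than in low cells. Il18 showed the widest range. It read 3.41, 3.72 and 4.59 in control high cells and 4.00, 5.82 and 5.59 in control low cells, against 8.85, 9.18 and 8.96 in control negative cells. The negative cells were at least 28.6-fold above the high cells (log2 difference -5.09 ± 0.45 (SE), adjusted p = 4.19e-07, high minus negative) and 14.6-fold above the low cells (log2 difference -3.86 ± 0.45 (SE), adjusted p = 1.66e-05, low minus negative).

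Tlr4 and Nfkbiz were lower in both control high and control low cells than in control negative cells, and neither was called between high and low cells. Tlr4 read 4.48, 4.78 and 4.47 in control high and 4.59, 4.34 and 5.12 in control low cells, against 6.38, 6.46 and 6.36 in control negative cells. Its log2 difference from negative cells was -1.82 in high and -1.72 in low cells (adjusted p = 0.000296 and 0.00176). Nfkbiz differed from negative cells by -1.31 in high and -0.97 in low cells (adjusted p = 0.000327 and 0.0116, the second at 0.0602 without control negative 1). Rel was lower in high than in negative cells (log2 difference -1.27 ± 0.41 (SE), adjusted p = 0.0473), a call that no fit with 1 array fewer kept. Ptgs2 was higher in control high cells, at least 5.53-fold against negative cells (log2 difference 3.2 ± 0.43 (SE), adjusted p = 5.38e-05) and at least 5.53-fold against low cells (log2 difference 2.83 ± 0.43 (SE), adjusted p = 0.00183).

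Cell type markers differed between the control populations as well, and their part in the values above was not tested. Between control high and control negative cells 4 of 7 mast, 5 of 7 endocrine and 4 of 9 neck and pit cell genes were lower, and 6 of 7 tuft and 4 of 6 chief cell genes were higher. The median log2 differences were -2.39 for mast, -3.08 for endocrine and 3.30 for tuft cell genes. The other way, 1 mast cell gene was higher and 1 chief cell gene was lower in control high cells. Of 17 immune cell genes 1 was higher and 2 were lower, and of 7 epithelial genes 1 was higher and 1 lower. Also, 1 of 6 parietal cell genes was lower and 1 of 12 fibroblast and endothelial genes was higher. Between control low and control negative cells 4 of 7 mast, 4 of 9 neck and pit, 3 of 17 immune and 2 of 7 epithelial genes were lower. In the same comparison 3 of 7 tuft, 4 of 6 chief, 2 of 6 parietal and 1 of 12 fibroblast and endothelial genes were higher. Between control high and control low cells 5 of 7 endocrine and 3 of 6 parietal cell genes were lower, and of 7 epithelial genes 1 was higher and 1 lower.

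In tamoxifen mice, 2 of 8 chemokines (Cxcl16 and Cxcl1), 2 of 6 cytokines (Tnf and Il18) and Relb were lower in high than in low cells. With Ptgs2, which was higher in high cells, 6 of the 33 genes differed, where 3.22% of all genes were called (1.46% higher and 1.77% lower). Cxcl16 (log2 difference -1.53 ± 0.27 (SE), adjusted p = 0.00262), Cxcl1 (log2 difference -0.97 ± 0.19 (SE), adjusted p = 0.0066), Relb (log2 difference -0.82 ± 0.17 (SE), adjusted p = 0.00844), Tnf (log2 difference -0.97 ± 0.22 (SE), adjusted p = 0.017) and Il18 (log2 difference -1.55 ± 0.39 (SE), adjusted p = 0.0288) were the 5. Between the same populations 6 of 7 tuft cell genes were higher, and 3 of 6 parietal and 3 of 9 neck and pit cell genes lower, in high cells. Tnf read 4.07, 4.62, 4.90 and 4.86 in tamoxifen high cells, against 6.12, 5.69, 5.47 and 5.05 in tamoxifen low cells, with no overlap. The Tnf call was lost without tamoxifen low 1 or 2, and that of Il18 without tamoxifen high 2 or 4 or tamoxifen low 1, 2 or 4 (adjusted p up to 0.124). With only these 2 groups in the fit Cxcl16, Cxcl1 and Ptgs2 kept their calls. Ptgs2 was higher in tamoxifen high cells than in tamoxifen low cells (log2 difference 2.06 ± 0.37 (SE), adjusted p = 0.00324).

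Against tamoxifen negative cells, 6 genes differed in tamoxifen high cells (1 higher, 5 lower) and 2 in tamoxifen low cells (1 each way), where 10.3% and 2.24% of all genes were called. Over all genes 3.33% were higher and 6.97% lower in high than in negative cells, and 0.509% higher and 1.73% lower in low than in negative cells. Of 17 immune cell genes 7 were lower and 1 was higher in tamoxifen high than in tamoxifen negative cells and 0 were called for low cells (9 at an unadjusted p under 0.05), and of 7 endocrine cell genes 6 and 4 were lower. Il18 was lower in high cells (log2 difference -3.56 ± 0.39 (SE), adjusted p = 7e-06) and in low cells (log2 difference -2.0 ± 0.39 (SE), adjusted p = 0.00526). Ccl28, a chemokine of mucosal epithelia, read 5.07, 4.54, 5.08 and 5.32 in tamoxifen high cells, against 6.0, 5.93, 5.95 and 5.72 in tamoxifen negative cells (log2 difference -0.90 ± 0.19 (SE), adjusted p = 0.00371). Il1rn, Tnf and Nfkbiz were also lower in tamoxifen high than in tamoxifen negative cells (log2 -0.59, -0.81 and -0.61), and these 3 calls were lost with only the groups compared in the fit and without tamoxifen negative 3. Of 8 fits without 1 array, Il1rn kept its call in 6, Tnf in 4 and Nfkbiz in 2. The Nfkbiz call was also lost after cyclic loess and with a trended and robust prior, and the Tnf call with the replicate block. Cxcl1 was higher in tamoxifen low than in tamoxifen negative cells (log2 difference 0.87 ± 0.19 (SE), adjusted p = 0.0154), a call lost without tamoxifen low 1 or 2 or tamoxifen negative 4 (adjusted p up to 0.0742).

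Other genes of the pathway were taken from 4 lists of receptors, signalling proteins, inhibitors and targets, with 90 of 96 genes measured. In low cells 18 of the 90 rose and 2 fell, in high cells 4 rose and 0 fell, and in negative cells 7 rose and 0 fell (limma). Of all genes, 5.35% rose and 2.98% fell in low cells, 1.70% and 1.04% in high cells, and 1.62% and 0.703% in negative cells. Their median log2 differences were 0.15 in low, 0.10 in high and 0.15 in negative cells, beside 0.01, 0.00 and 0.00 over all genes. Of 25 receptors, 7 rose in low cells. Cd14, the co-receptor that hands lipopolysaccharide to Tlr4, rose in low (log2 3.66 ± 0.36), high (log2 2.36 ± 0.36) and negative cells (log2 2.68 ± 0.36), with adjusted p = 3.92e-06, 0.00132 and 0.000331. Ly96, which encodes MD-2, the Tlr4 partner, rose in low cells (log2 2.44 ± 0.37, adjusted p = 0.000253), as did the TNF receptor Tnfrsf1a (log2 0.84 ± 0.19), the double-stranded RNA receptor Tlr3 (log2 1.37 ± 0.32) and the signal chain Il6st of the interleukin-6 receptor (log2 0.85 ± 0.23). Il6st also rose in high cells (log2 1.36 ± 0.23, adjusted p = 0.0032). In negative cells the interleukin receptor genes Il6ra (log2 1.97 ± 0.44) and Il1r1 (log2 1.72 ± 0.42) rose, with adjusted p = 0.0175 and 0.0317, and so did Tnfrsf1a (log2 0.75 ± 0.19).

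The counts of signalling proteins and inhibitors that rose in low cells were 1 each, near the 5.35% of all genes. Of 20 signalling proteins measured, low cells had 1 that rose, the adaptor Bcl10 (log2 1.02 ± 0.20, adjusted p = 0.00223), and 1 that fell, the kinase Irak1 (log2 -0.55 ± 0.14, adjusted p = 0.0204), and high cells had 1 that rose, the IkB kinase subunit Ikbkb (log2 0.85 ± 0.22, adjusted p = 0.0413). Of 11 inhibitors, 1 rose in low cells, the deubiquitinase Otulin (log2 0.80 ± 0.14, adjusted p = 0.00101). Of 34 targets, 9 rose and 1 fell in low cells. Ier3, an immediate early survival gene (log2 2.50 ± 0.39), Gadd45b, a stress-induced regulator of kinases (log2 2.14 ± 0.40), the growth factor gene Tgfb1 (log2 1.69 ± 0.30), the cytokine gene Lif (log2 1.32 ± 0.26) and the protease gene Plau (log2 0.91 ± 0.18) had the smallest adjusted p, from 0.00038 to 0.00259. Ier3, Gadd45b and Plau also rose in negative cells (log2 1.61 ± 0.39, log2 2.17 ± 0.40 and log2 0.86 ± 0.18), and Ier3 rose in high cells (log2 1.52 ± 0.39). Sod2, the mitochondrial superoxide dismutase and a known NF-kB target, fell in low cells (log2 -0.61 ± 0.17, adjusted p = 0.0299).

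Markers of the cell types that the sorted populations could hold were read beside these genes, against the same shares of all genes (5.35% rising and 2.98% falling in low cells, 1.70% and 1.04% in high cells, 1.62% and 0.703% in negative cells). The mean log2 level of 17 immune cell genes ran from 4.09 to 4.25 on tamoxifen low and 3.76 to 4.05 on control low arrays. In high cells it ran from 3.90 to 4.34 with tamoxifen and 4.05 to 4.26 in controls, and in negative cells from 4.25 to 5.49 with tamoxifen and 4.09 to 4.51 in controls. In low cells 1 of the 17 rose, the lysosomal gene Cd68 (log2 2.79 ± 0.24), and 1 fell, the leukocyte gene Ptprc (log2 -2.67 ± 0.71). In negative cells Cd68 (log2 2.14 ± 0.24) and the neutrophil gene S100a8 (log2 2.58 ± 0.68) rose, and in high cells 0 of 17 were called by limma, with 3 at an unadjusted p under 0.05. Adgre1 and Itgam, which mark macrophages and myeloid cells, Cd3e and Cd79a, which mark T and B cells, and Itgax and Ccr2 were near background in all 6 groups. Of the 17 immune cell genes, 11 were above background in tamoxifen negative and 9 in control negative cells. The count was 7 in tamoxifen high, 7 in control high, 6 in tamoxifen low and 5 in control low cells. In low cells 6 of 7 tuft, 3 of 6 parietal, 2 of 6 chief, 2 of 7 endocrine and 1 of 7 mast cell genes fell. Also in low cells 4 of 7 epithelial genes rose (median log2 difference 0.88), 2 of 9 neck and pit cell genes fell and 1 rose, and the endocrine median was -2.10. In high cells 3 of 6 parietal, 1 of 7 tuft and 1 of 6 chief cell genes fell and 1 of 7 epithelial genes rose. In negative cells 4 of 7 mast and 3 of 9 neck and pit cell genes fell, 2 of 6 parietal cell genes fell and 1 rose, and 1 each of 7 epithelial and 7 endocrine genes rose, with an endocrine median of 2.04, while 1 of 7 squamous genes rose and 1 fell. Of 12 fibroblast and endothelial genes 0 were called in any of the 3 populations by limma, with 2 in low, 2 in high and 0 in negative cells at an unadjusted p under 0.05. The part of these shifts in the NF-kB, cytokine and chemokine values was not tested.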

How the data were processed

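Total RNA of sorted cells was turned into amplified, biotinylated cDNA for the arrays, per the labels' protocols. The authors deposited log2 signal per probe set for 21 arrays. The submitters' processing notes name R 3.2.3, limma 3.26.8, RMA and oligo with no role or order, and the genome build of the probe sets is not given in the sources used here. Values run from 0.958 to 13.55 and array medians from 3.95 to 4.25, and Pearson correlations within a group from 0.926 to 0.985. The number of arrays limits the precision. Of 41345 probe sets, 23521 had exactly 1 gene, 1814 several and the rest none in the platform's table. For 23328 of those with 1 gene the symbol was read from RefSeq by gene number, whether or not it changed. The brightest probe set per gene left 22180 genes, with no filter on level.

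Group means were fitted with limma 3.58.1 in R 4.3.3 (lmFit and eBayes, all 21 arrays, 15 residual and 5.27 prior degrees of freedom) and tested two-sided in 12 comparisons with Benjamini-Hochberg adjustment over all genes. The code was tested on simulated data. Motifs were searched with Python 3.11.15. The genes, lists and tests were chosen with earlier results of these data known. Genes called with tamoxifen, or whose group means span over 1 log2, are given on every array, and up to 5 called genes per other list are named. Alternatives were cyclic loess, averaging all probe sets of a gene, a trended and robust variance prior, fitting only the groups compared and a filter that removed the dimmest 25 percent. Others were a random block for the number in the array titles within a treatment, a replicate block and leaving out each array. Whether that title number marks a sorting run shared by the populations is not stated in the labels. The replicate block used the title number between populations of 1 treatment, and the replicate number for tamoxifen against control and the interactions. Replicate 1 has title number 2 in tamoxifen high and low cells and 1 in tamoxifen negative cells, so replicate numbers do not follow title numbers there. Title numbers recur across the populations of both treatments. Correlations of deviations ran from 0.116 to 0.36 over the control pairs that share a title number. They ran from -0.159 to 0.496 over such pairs of tamoxifen populations, and from -0.213 to 0.209 for replicate numbers across treatments.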

Additional observations from a re-analysis of the deposited data

Results flagged for a closer look

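Within the groups of 4 arrays, 8 of 99 sets of values for these genes had 1 array set apart from the other 3 by Dixon's criterion, which chance meets in about 1 in 20 sets. The share over all genes was not computed, and sets from the same array are not independent. Tamoxifen high 4 stood high for Ccl2 (4.93, against 4.00 to 4.14 on the other 3 arrays) and for Tnfaip2 (3.69, against 2.81 to 2.94, all near background). Tamoxifen high 2 stood high for Relb (5.84, against 5.39 to 5.46). Tamoxifen low 4 stood high for the alarmin Il33 (5.81, against 3.89 to 4.00), tamoxifen low 2 for Ptgs2 (3.71, against 3.09 to 3.19, all near background), and tamoxifen low 3 stood low for Tlr4 (5.51, against 6.30 to 6.40). Tamoxifen negative 4 stood low for Tnf (4.85, against 5.55 to 5.63) and for Tnfaip3 (4.95, against 5.80 to 5.86).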

How the results depend on the processing

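Of 719 recomputed differences of called genes, 0 changed direction and 91 no longer passed. Averaging probe sets, the trended and robust prior, the filter and fitting only the groups compared leave each of these differences as it was. Direction could not change in those settings, so only the remaining settings bear on it. The replicate block gave 10 called genes for tamoxifen against control in high cells (8 higher, with Ccl2 and Ptgs2 lower) and 9 in negative cells, against 6 and 4, and 5 for tamoxifen low against tamoxifen negative cells, against 2. In high and negative cells the block joined tamoxifen and control arrays by replicate number. Tamoxifen low and tamoxifen negative cells share title numbers 2, 4 and 28, with correlations of deviations of -0.102, 0.225 and 0.496. In the control populations, where every shared title number gave a positive correlation, the block changed no call. For tamoxifen against control in low cells the block kept 18 calls (17 shared, with Nfkbiz for Rel). With only the groups compared in the fit, 1 gene was called in high cells, 8 for control high against control negative cells, 3 each for tamoxifen high against tamoxifen negative and against tamoxifen low cells, and 1, Tlr4, for the low minus negative interaction, against 6, 5, 6, 6 and 0. The cause was not tested. The other alternatives left each count within 1.5 times. With the 5 middle letters of the motif open, 81.5% of genes held a match, against 51.9%. Without 1 array the counts ran from 13 to 18 in low cells, 3 to 9 in high cells (9 without tamoxifen high 4) and 2 to 8 in negative cells. They ran from 4 to 4, 2 to 3 and 1 to 2 (2 without control low 1) for control high against negative, low against negative and high against low cells. In tamoxifen mice they ran from 3 (without tamoxifen negative 3) to 7, 1 (without tamoxifen low 1, tamoxifen low 2 or tamoxifen negative 4) to 3, and 4 to 8 for the same pairs, and were 0 in the interactions. Over all genes, the 606 calls in high cells became 12 with only those groups fitted and 1128 with the block, and the 515 in negative cells 845 with the block. With only the groups compared, the calls over all genes were 1807 for control low against negative cells (1168), 147 for control high against low (297), 938 for tamoxifen high against negative (2283), 245 for tamoxifen high against low (715), and 16 and 291 for high and low minus negative (55 and 186). A random block for the title number gave 84 for high minus negative and 13 for high minus low (6), and the replicate block 11 for the last. Without 1 array the calls over all genes ran from 215 (without control high 1) to 1702 (without tamoxifen high 4) in high cells, from 990 (without control low 1) to 1715 in low cells (1846 with all arrays), and from 176 (without control negative 1) to 883 (without tamoxifen negative 4) in negative cells, so the shares of all genes called move with single arrays too. Genes near background limit what a difference can show.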
